A study of Mus musculus with 9 samples.

Results

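F-box protein genes were followed across fully grown mouse oocytes in which Mtor had been targeted by either of 2 oocyte Cre drivers. The genes were taken by symbol, as every row of the expression table whose name starts with Fbxw, Fbxo or Fbxl followed by a digit, leaving out Fbxo5 and Fbxo43. This gave 76 of 24228 rows, of which 22 were Fbxw, 35 Fbxo and 19 Fbxl. One of the Fbxl rows, Fbxl12os, is an antisense transcript that the symbol rule takes and not an F-box protein gene. No expression value was used to choose the genes.

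F-box proteins are the substrate-binding subunits of SCF ubiquitin ligases. The F-box binds Skp1, which joins it to the scaffold Cul1 and the RING protein Rbx1, and the rest of the F-box protein holds the substrate that is marked for degradation. The Fbxw class carries WD repeats, the Fbxl class leucine-rich repeats, and the Fbxo class other domains. In oocytes, protein degradation through ubiquitin ligases is known to take part in keeping and leaving meiotic arrest, and mice carry a run of Fbxw genes on chromosome 9 whose transcripts are known from oocytes and early embryos.

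RNA was sequenced from fully grown oocytes at the germinal vesicle stage, the prophase arrest before meiosis resumes, taken from large antral follicles of C57BL/6 females 46 h after 5 IU of PMSG, a gonadotropin that drives follicle growth. The groups were the Mtor conditional knockout by Gdf9-Cre (MG), the Mtor conditional knockout by Zp3-Cre (MZ) and wild type (WT), with 3 libraries each. Both promoters are active in oocytes, with Gdf9-Cre acting sooner as follicles grow than Zp3-Cre, so the 2 knockouts differ in driver and stage, while all groups shared strain and hormone treatment. The age is 23 days in the series text and 6 months in the sample labels, which was not resolved. The labels do not say whether the 3 libraries of a group are separate animals, so the tests below speak only of the spread between libraries, and that spread may be technical.

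The values are FPKM, fragments per kilobase of transcript scaled to the depth of the library, as deposited by the authors. From the steps between low values, 1 fragment in a transcript of 1 kb was worth about 1.311 FPKM (MG 3) to 2.34 FPKM (MZ 1), so that low genes rest on few fragments. The FPKM of a library summed to between 428329 and 554305 in MG, 657851 and 677618 in MZ, and 584503 and 718684 in WT, and MG 3 had the lowest sum. The summed FPKM of 10 oocyte markers was 11069 to 25730 in MG, 26463 to 27477 in MZ and 21147 to 25439 in WT, lowest in MG 3. Of these markers, 9 of 10 had a negative log2 fold change for MG against WT (median -0.345, 1 of them with an unadjusted limma p under 0.05) and 8 of 10 for MG against MZ (median -0.565, 4 of them with such a p), with Oosp1 at -1.84 and Ooep at -1.76 in the second comparison, while Nlrp5 was positive in both. With libraries scaled to the same FPKM sum, these medians became 0.045 and -0.131, beside 0.359 and 0.39 over all tested genes. With quantile normalization they were 0.148 and 0.053, beside 0.009 and 0.005. Upper quartile scaling gave -0.202 and -0.502, beside 0.161 and 0.090, with 8 of 10 markers negative in each comparison. In either direction, 1 and 5 of the 10 markers still had such a p at the same FPKM sum. The counts were 2 and 3 with quantile normalization, and 2 and 4 with upper quartile scaling. For MZ against WT, 8 of 10 markers were positive (median 0.322). That median was 0.278 at the same FPKM sum, 0.202 with quantile normalization and 0.403 with upper quartile scaling. The 14 granulosa and cumulus markers together reached 22.04 to 38.5 FPKM in MG, 22.7 to 29.0 FPKM in MZ and 20.96 to 33.6 FPKM in WT. Foxl2 and Amhr2 were at 0 in all 9 libraries, whereas Cyp19a1, Kitl and Nr5a2 were above 0 in all 9. Inha averaged 4.85 FPKM in MG, 1.74 in MZ and 1.72 in WT. Of the 6 granulosa and cumulus markers that could be tested, 3 had an unadjusted limma p under 0.05 for MG against WT (median log2 fold change 0.726), of which Kitl (4.30 FPKM in MG, 2.88 in MZ and 0.634 in WT) and Nr5a2 (4.17, 2.87 and 1.17 FPKM) were above WT in every MG library. The third, Cyp19a1, averaged 13.1 FPKM in MG, 14.6 FPKM in MZ and 22.6 FPKM in WT, and 0 of the 6 had such a p for MG against MZ. The 8 theca and stroma markers reached 8.29 to 17.4, 7.95 to 21.04 and 5.69 to 11.04 FPKM, and the 5 blood and endothelium markers 16.6 to 24.3, 7.07 to 16.0 and 13.9 to 22.7 FPKM, in MG, MZ and WT in turn. Mtor was listed at 5.29 ± 0.683 FPKM in MG, 5.21 ± 1.18 in MZ and 3.18 ± 0.200 in WT (SD, n = 3 each). This value covers the whole gene, and the sources used here do not name the part that Cre removes, so it does not check the labels. Fold changes are differences of log2(FPKM + 1) between group means, tested with limma over all 10801 genes that passed a filter on low values, and an adjusted p under 0.05 counts as passing.

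A run of Fbxw genes on chromosome 9 stood first in level. These 13 members, all on the minus strand, lie in 651 kb between positions 109139447 and 109790670 of chromosome 9 (GRCm38, the mm10 build of the files), in the order Fbxw21, Fbxw13, Fbxw20, Fbxw14, Fbxw28, Fbxw22, Fbxw16, Fbxw19, Fbxw15, Fbxw24, Fbxw18, Fbxw26 and Fbxw27, all annotated as protein coding. RefSeq's table of start sites (GRCm38.p6) held a window for 10 of these 13 genes and for 56 of all 76. Of the 10, 5 are printed because the results below turn on them, each as the 250 bases before the start site, 5′ to 3′ on the minus strand: the most abundant gene of the run (Fbxw24), the gene that varied most between groups (Fbxw21), the most similar pair (Fbxw14 and Fbxw28), and the gene without one of the shared motifs (Fbxw20). Capitals mark the motif CAGCTG, the motif TTTAAAA, and the longest stretch present in all 10 windows.
Fbxw24 promoter, chr9:109626060-109626309: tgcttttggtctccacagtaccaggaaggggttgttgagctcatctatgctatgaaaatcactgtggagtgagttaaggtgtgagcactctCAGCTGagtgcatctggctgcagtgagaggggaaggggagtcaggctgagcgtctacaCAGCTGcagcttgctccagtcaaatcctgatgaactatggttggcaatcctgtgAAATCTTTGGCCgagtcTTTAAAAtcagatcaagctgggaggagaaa
Fbxw21 promoter, chr9:109162023-109162272: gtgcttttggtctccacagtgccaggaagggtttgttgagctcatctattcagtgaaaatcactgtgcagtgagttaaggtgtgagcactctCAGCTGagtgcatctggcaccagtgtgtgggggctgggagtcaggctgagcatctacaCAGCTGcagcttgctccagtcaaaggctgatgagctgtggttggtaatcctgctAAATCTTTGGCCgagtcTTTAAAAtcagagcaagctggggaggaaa
Fbxw14 promoter, chr9:109287677-109287926: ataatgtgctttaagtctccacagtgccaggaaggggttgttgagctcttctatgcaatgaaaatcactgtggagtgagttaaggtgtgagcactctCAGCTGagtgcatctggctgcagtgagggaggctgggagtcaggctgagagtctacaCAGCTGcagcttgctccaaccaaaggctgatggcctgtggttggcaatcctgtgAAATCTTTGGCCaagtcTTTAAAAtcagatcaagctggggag
Fbxw28 promoter, chr9:109339660-109339909: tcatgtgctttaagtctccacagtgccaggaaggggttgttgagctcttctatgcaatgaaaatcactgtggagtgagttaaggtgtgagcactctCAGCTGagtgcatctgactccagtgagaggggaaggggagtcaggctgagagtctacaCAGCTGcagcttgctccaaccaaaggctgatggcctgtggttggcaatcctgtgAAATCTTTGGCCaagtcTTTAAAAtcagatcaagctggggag
Fbxw20 promoter, chr9:109234755-109235004: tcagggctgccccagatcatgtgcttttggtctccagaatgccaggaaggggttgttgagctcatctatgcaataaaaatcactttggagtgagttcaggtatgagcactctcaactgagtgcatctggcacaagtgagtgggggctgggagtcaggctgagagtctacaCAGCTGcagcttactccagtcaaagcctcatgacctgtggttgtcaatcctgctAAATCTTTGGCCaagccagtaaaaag

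The 10 promoters, taken over 250 bases before and 50 bases after the start, were 64.7% to 97.0% identical over their 45 pairs (median 85.3%), with the highest value for Fbxw14 and Fbxw28. The lowest value was for Fbxw19 and Fbxw20. Their windows are shifted against each other, with the longest common stretch starting at offset -71 in Fbxw19 and -26 in Fbxw20. Gaps counted against identity, so this shift of the annotated starts lowers the value. The motif CAGCTG, one form of the E-box to which basic helix-loop-helix factors bind, was in 10 of the 10 windows on either strand, against 16.1% of 27025 mouse promoters of the same length and 9 of the 46 other F-box members with a window (19.6%). The wider E-box motif CANNTG, which includes the one above, was in 10 of 10, against 72.1% of all promoters. The motif TTTAAAA, on either strand, was in 9 of 10, all but Fbxw20, against 8.65% of all promoters and 6 of the 46 other members. Its first base lay at offset -30 to -25 from the annotated start in 7 of these 9 genes, at -54 in Fbxw19 and at -10 in Fbxw18. The homeobox motif TAATTA was on neither strand of the 10 windows, against 5.31% of all promoters. The related motif TAATTG was on neither strand either, against 8.15% of all promoters. The longest stretch common to all 10, AAATCTTTGGCC, was in 12 promoters of 27025 (0.0444%) and in 0 of the 46 other members. The genes of the run are close copies of one another, so their windows are not independent, the motifs and the stretch were chosen after these sequences had been seen, and a match describes letters, not a bound site.

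Most of the FPKM of the members taken by symbol came from this run. Averaged over the 9 libraries, 8 members reached at least 1000 FPKM, and all 8 belong to the run, while 91 genes in the whole table reached that level. A further 8 members lay between 100 and 1000 FPKM, 14 between 10 and 100 FPKM, 31 between 1 and 10 FPKM, and 15 below 1 FPKM. The run ranked between 14 (Fbxw24, mean 4063.5 FPKM) and 211 (Fbxw13, mean 436.1 FPKM) of 24228 genes, and it carried 92.8% to 94.4% of the FPKM of all members in every library. The most abundant members outside it were Fbxo34 (404.2 FPKM), Fbxo28 (152.6 FPKM) and Fbxw4 (131.4 FPKM).

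**Figure D1:**
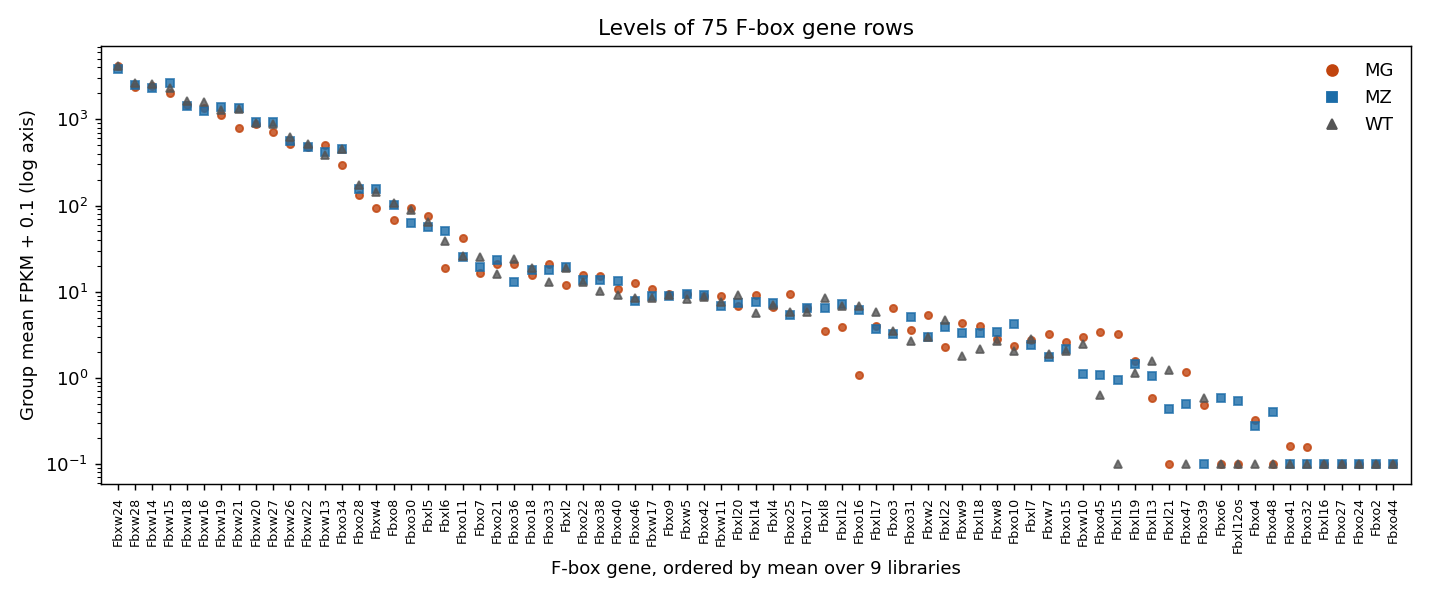
Group mean FPKM plus 0.1 (log axis) of 75 of the 76 F-box gene rows, ordered by their mean over 9 libraries; circles are MG, squares MZ and triangles WT, 3 libraries each. The 13 genes of the chromosome 9 run fill the left end, and the 5 rows listed at 0 in all 9 libraries stand at the right end at the offset of 0.1.

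Fbxw24 had 3847, 4369 and 4327 FPKM in MG, 4327, 3694 and 3584 FPKM in MZ, and 3441, 4294 and 4690 FPKM in WT. It was the highest gene of the run in every library, and the groups overlapped. Fbxw28 averaged 2394 ± 189 FPKM in MG, 2482 ± 251 FPKM in MZ and 2651 ± 251 FPKM in WT (SD, n = 3 each). Fbxw14 averaged 2441 ± 184, 2334 ± 126 and 2540 ± 269 FPKM in the same order of groups. The coding sequences of these 2 genes are 99.1% identical, and 30.2% of the 150-base windows of Fbxw14 and 32.2% of those of Fbxw28 occur in another gene of the run, so the division of reads between them is uncertain. The other 11 genes share no such window with the run, with coding identities over the 78 pairs of the run from 79.2% to 99.1% (median 83.7%) and coding lengths of 1392 to 1407 bases.

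Fbxw15 averaged 2029 ± 190 FPKM in MG, 2624 ± 189 FPKM in MZ and 2338 ± 171 FPKM in WT, with all MG values below all MZ values. Fbxw18 averaged 1455 ± 44.6, 1435 ± 231 and 1622 ± 382 FPKM in MG, MZ and WT. Fbxw16 averaged 1346 ± 282 FPKM in MG, 1248 ± 130 FPKM in MZ and 1601 ± 177 FPKM in WT, with all 3 MZ values below all 3 WT values. Fbxw19 averaged 1118 ± 150 FPKM in MG, 1393 ± 211 FPKM in MZ and 1300 ± 49.4 FPKM in WT, and its MG values lay below all MZ and all WT values. With libraries scaled to the same FPKM sum, or quantile normalized, the signs of Fbxw15 and Fbxw19 in both comparisons with MG turned. The first of these scalings also moved the medians over all genes, to 0.359 against WT and 0.39 against MZ. Of the lower genes of the run, Fbxw20 averaged 876.8 ± 26.5, 938.7 ± 206 and 896.6 ± 117 FPKM in MG, MZ and WT, and Fbxw27 averaged 711.9 ± 95.03, 922.2 ± 185 and 877.6 ± 134 FPKM. The log2 fold change of Fbxw27 for MG against MZ was -0.36 (limma adjusted p = 0.379), and its sign turned under the same 2 scalings. Fbxw26 averaged 513.1 ± 29.1, 556.7 ± 91.2 and 624.9 ± 111 FPKM, and Fbxw22 averaged 483.8 ± 11.8, 475.8 ± 91.5 and 517.9 ± 81.7 FPKM. Except where stated, the libraries of the 3 groups overlapped for these genes.

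**Figure D2:**
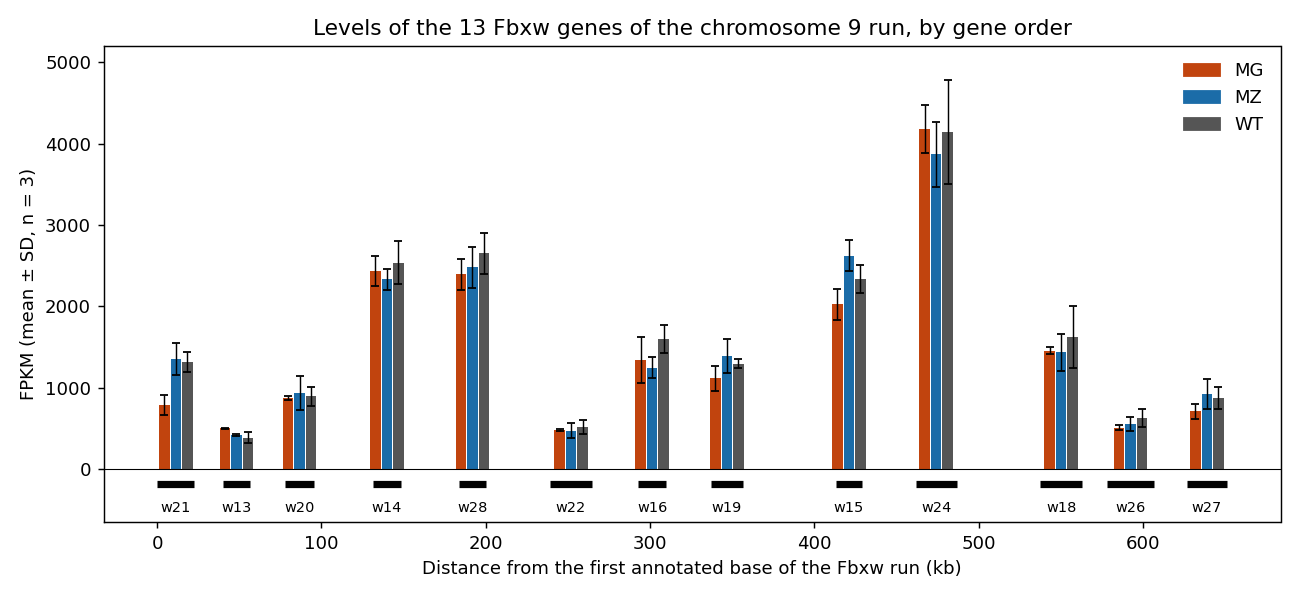
FPKM (mean ± SD, n = 3; linear axis from 0) of the 13 Fbxw genes at their distance in kb from the first annotated base of the run, with the gene bodies as black bars, labels shortened to w and the number, and bars for MG, MZ and WT from left to right. Fbxw24 is the tallest and Fbxw13, second from the left, the lowest in MZ and WT, and Fbxw21 at the left end has an MG bar (793 FPKM) below its MZ and WT bars (1357 and 1317 FPKM).

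Fbxw24 held the first place, Fbxw18 the fifth, Fbxw27 place 10 and Fbxw26 place 11 in the group means of MG, MZ and WT alike. Fbxw21 was in place 9 in MG, 7 in MZ and 7 in WT. Over all 9 libraries the coefficient of variation was 8.04% to 26.3% (median 14.1%) in the run, highest in Fbxw21, while the 847 genes with a mean of at least 100 FPKM had a median of 23.4%. Those genes were not matched to the run in level, as 91 of the 847 averaged at least 1000 FPKM, against 8 of the 13 in the run. Libraries also moved the run as a whole. Within MZ the first library was highest for 13 of 13 genes, within WT the third was highest for 12, and within MG the second was highest for 10.

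The summed FPKM of the run was 18026, 19925 and 18582 in MG, 22556, 19230 and 18363 in MZ, and 18545, 20879 and 23030 in WT, so that the groups overlapped. The log2 ratio of the group means was -0.144 for MG against WT, -0.054 for MZ against WT and -0.089 for MG against MZ, and with every library scaled to the same FPKM sum it became 0.245, -0.109 and 0.354. The sign for MG therefore depends on how the libraries are scaled. As a share of all FPKM, the run made up 3.25%, 3.88% and 4.34% in MG, 3.33%, 2.85% and 2.79% in MZ, and 2.58%, 3.57% and 3.52% in WT. The highest share was in MG 3, whose FPKM sum and oocyte marker sum were the lowest, and the part of these in the result was not tested. In bulk libraries, fewer cells of a type and less RNA per cell cannot be told apart.

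Fbxw21 was the gene of the run that differed most between MG and the other groups. It had 907.3, 811.8 and 660.1 FPKM in MG, 1588, 1250 and 1233 FPKM in MZ, and 1462, 1248 and 1242 FPKM in WT. All 3 MG values lay below every MZ and WT value, while MZ and WT overlapped. In limma, MG differed from WT by -0.74 ± 0.19 (log2 fold change, SE; adjusted p = 0.106) and from MZ by -0.78 ± 0.19 (adjusted p = 0.0818), and neither passed. For MZ against WT it was 0.04, with a 95% interval from -0.37 to 0.45. The fold change for MG against WT was negative in all 19 alternative settings and ranged from -0.84 to -0.25 (adjusted p 0.0846 to 0.489), and for MG against MZ it ranged from -0.88 to -0.09 (adjusted p 0.0533 to 0.82). Without MG 3, the library with the lowest value, it was -0.61 against WT (limma adjusted p = 0.175) and -0.65 against MZ (0.182). Scaling also changed the fold change of Fbxw21. At the same FPKM sum it was -0.35 against WT (limma adjusted p = 0.196) and -0.34 against MZ (0.174). That scaling moved all genes upward in MG, with their median going from 0.044 in both comparisons to 0.359 and 0.39. For Fbxw21, quantile normalization gave -0.245 and -0.091 (limma adjusted p = 0.489 and 0.82), where the medians over all genes were 0.009 and 0.005. In the authors' deposited table, computed with Cuffdiff, the q-value of Fbxw21 was 0.0388 for MG against WT and 0.00272 for MG against MZ.

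Taken within each library, Fbxw21 made up 5.03%, 4.07% and 3.55% of the summed FPKM of the run in MG, 7.04%, 6.50% and 6.71% in MZ, and 7.88%, 5.98% and 5.39% in WT. This share does not depend on how libraries are scaled against each other, and it was lower in every MG library than in any other. It was computed after the values of Fbxw21 had been seen.

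**Figure D3:**
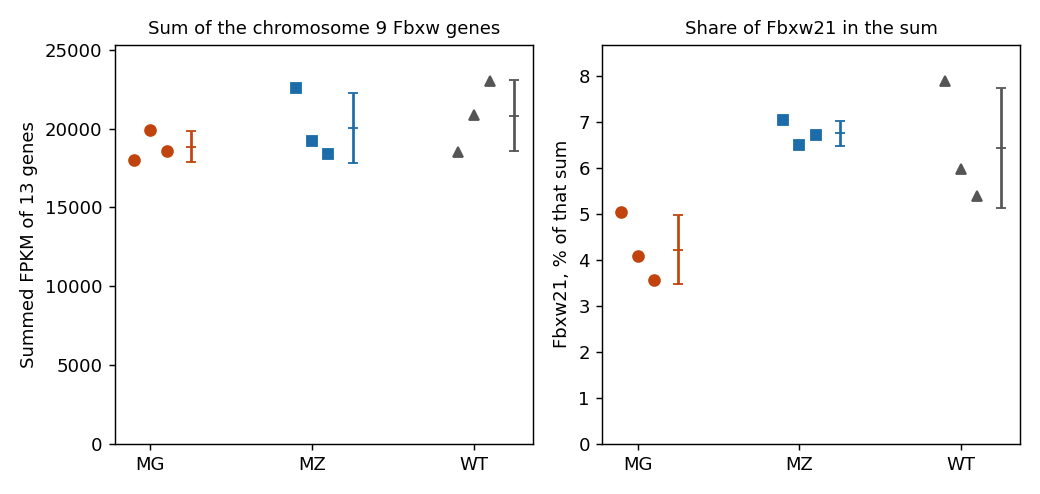
Left, summed FPKM of the 13 genes of the chromosome 9 run in each library; right, the share of Fbxw21 in that sum, in percent; points are libraries and bars to their right the mean ± SD (n = 3), with MG, MZ and WT from left to right and both axes from 0. The sums of the 3 groups overlap, whereas the MG shares of Fbxw21 (3.55% to 5.03%) lie below all MZ and WT shares.

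Fbxw13, next to Fbxw21 in the genome and its nearest relative in coding sequence (86.9% identical), lay the other way. It had 496.9, 514.7 and 494.0 FPKM in MG, 428.7, 414.4 and 405.2 FPKM in MZ, and 308.8, 423.4 and 438.9 FPKM in WT. Every MG value was above every MZ and WT value. In limma, MG differed from WT by 0.38 (adjusted p = 0.281) and from MZ by 0.27 (adjusted p = 0.448) on the log2 scale, and neither passed. Without WT 1, the lowest library, the value against WT was 0.22 (limma adjusted p = 0.557). With libraries scaled to the same FPKM sum the values were 0.77 against WT and 0.70 against MZ, and quantile normalized 0.89 and 0.83 (limma adjusted p 0.0841 to 0.557 and 0.08 to 0.619 over the 19 alternatives). The medians over all genes were 0.359 and 0.39 at the same FPKM sum, and 0.009 and 0.005 when quantile normalized.

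Across all members, 62 of the 76 had at least 1 FPKM in at least 3 of the 9 libraries and were tested, and 14 were not. None of the 62 passed limma at an adjusted p under 0.05 in any of the 3 comparisons, where 0.343% of all 10801 genes tested passed for MG against WT, 0.037% for MZ against WT and 0.13% for MG against MZ. A count of 0 among 62 is close to those shares. At an unadjusted limma p under 0.05, MG against WT gave 6 higher and 10 lower members, 25.8% of those tested, where all genes gave 17.7% (8.43% higher and 9.31% lower). MZ against WT gave 0 members, where all genes gave 6.3% (2.68% higher and 3.62% lower). MG against MZ gave 4 higher and 7 lower members, 17.7%, where all genes gave 17.6% (8.32% higher and 9.32% lower). One of the higher members in both comparisons with MG is Fbxl15, which is listed at 0 in all WT libraries and entered the test through its MG values. Without it, the counts were 5 higher and 10 lower of 61 (24.6%) for MG against WT and 3 higher and 7 lower (16.4%) for MG against MZ. Groups did not overlap for 7 higher and 10 lower members in MG against WT (27.4%, where all genes gave 21.5%, 11.6% higher and 9.89% lower). In MZ against WT this held for 4 higher and 2 lower members (9.68%, where all genes gave 12.2%, 5.67% higher and 6.52% lower). In MG against MZ it held for 7 higher and 11 lower members (29.0%, where all genes gave 25.2%, 12.8% higher and 12.3% lower). Without Fbxl15, groups did not overlap for 6 higher and 10 lower of 61 members in MG against WT (26.2%). For MG against MZ the counts without it were 7 higher and 11 lower (29.5%). Most oocyte markers also had negative fold changes in these comparisons with MG on the deposited scale, as given above, and their part in the members' counts was not tested. The comparisons share their libraries, so their counts are not independent. With 3 libraries against 3, the smallest p that an exact permutation test of 1 gene can give is 0.1.

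The median log2 fold change of the 62 members was 0.075 in MG against WT, where all genes gave 0.04. It was 0.045 in MZ against WT, where all genes gave 0.01, and 0.033 in MG against MZ, where all genes gave 0.04. For the 13 genes of the run the medians of these 3 comparisons were -0.15, -0.09 and -0.05, and with libraries scaled to the same FPKM sum those for MG turned to 0.25 (MG against WT) and 0.38 (MG against MZ), where the medians over all genes were 0.36 and 0.39. Quantile normalization gave 0.41 and 0.60 for the run, with the medians over all genes at 0.009 and 0.005, and upper quartile scaling gave -0.002 and 0.012, with 0.161 and 0.090 over all genes. Outside the run, the 49 tested members had medians of 0.19, 0.06 and 0.05.

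**Figure D4:**
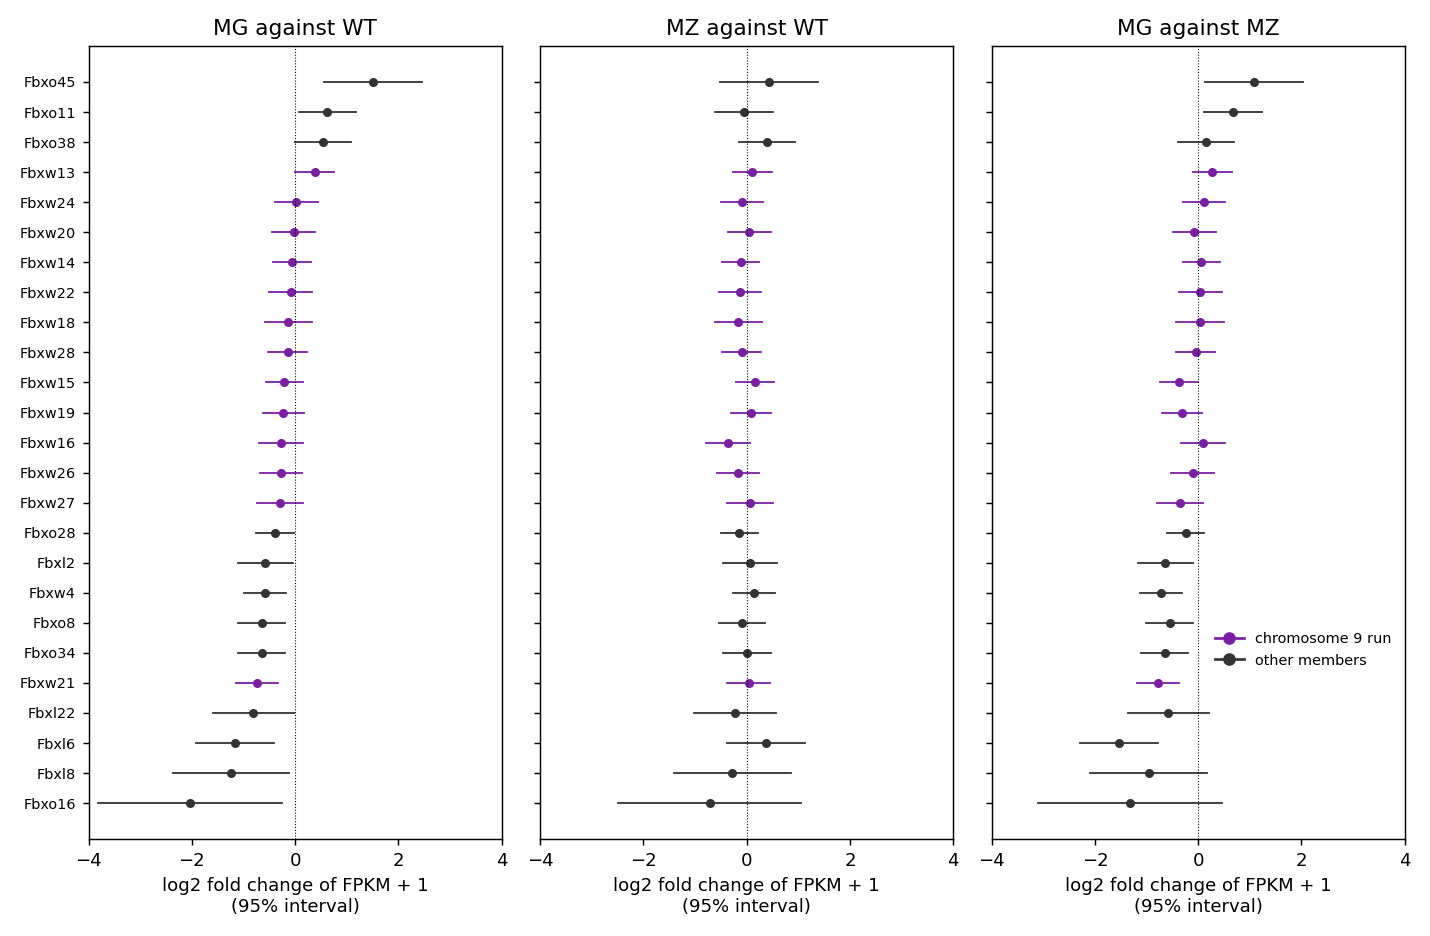
Log2 fold change of FPKM + 1 with its 95% interval from limma for 25 members, taken from the chromosome 9 run (purple) and the other members with an unadjusted p under 0.05 in a comparison with MG (dark grey; Fbxl15, at 0 in all WT libraries, is not drawn), with MG against WT at the left, MZ against WT in the middle and MG against MZ at the right. Fbxo45 and Fbxo11 lie to the right of 0 and Fbxl6, Fbxw21, Fbxo34, Fbxo8 and Fbxw4 to the left in both comparisons with MG, and all intervals include 0 for MZ against WT.

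Fbxl6, a leucine-rich repeat F-box gene on chromosome 15 (76535721 to 76538746, GRCm38), had 32.3, 14.7 and 9.83 FPKM in MG, 49.9, 53.7 and 49.1 FPKM in MZ, and 40.7, 33.4 and 43.2 FPKM in WT. The 3 groups did not overlap, with MG lowest and MZ highest. In limma, MG differed from WT by -1.16 ± 0.34 (log2 fold change, SE; adjusted p = 0.135) and from MZ by -1.54 ± 0.34 (adjusted p = 0.08). Without MG 1, the MG library nearest to the other groups, the values were -1.61 (limma adjusted p = 0.0389) and -1.99 (limma adjusted p = 0.0246), both past the threshold. Without MG 3, the lowest library, they were -0.80 (limma adjusted p = 0.276) and -1.18 (limma adjusted p = 0.182), and over the 19 alternatives the adjusted p ranged from 0.0389 to 0.283 and from 0.0246 to 0.239. In the authors' deposited table the q-values were 0.0261 for MG against WT and 0.00113 for MG against MZ. The values stood for about 20.5 fragments a library in MG, 57.9 in MZ and 37.3 in WT.

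Fbxw4, the dactylin gene known from limb development in mice, lies on chromosome 19 (45578254 to 45660312). It had 103.5, 87.7 and 92.4 FPKM in MG, 166.7, 146.6 and 156.0 FPKM in MZ, and 172.6, 118.4 and 138.7 FPKM in WT, and the MG values lay below all the others. Against WT, MG differed in limma by -0.58 (adjusted p = 0.15) and against MZ by -0.72 (adjusted p = 0.0853) on the log2 scale, and the authors' deposited q-values were 0.103 and 0.00684. With libraries scaled to the same FPKM sum, the fold changes of Fbxw4 were -0.19 and -0.29 (limma adjusted p = 0.521 and 0.306). The medians over all genes at that scaling were 0.359 and 0.39. The locus of Fbxw4 overlaps that of Dpcd. How strand was handled is not stated in the sources used here, so reads of the 2 genes may be mixed.

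Fbxo34, which in mouse oocytes is known to act on meiotic progression, was the most abundant member outside the run and lies on chromosome 14 (47450421 to 47531962). It had 319.5, 364.1 and 210.4 FPKM in MG, 442.8, 458.6 and 468.9 FPKM in MZ, and 487.7, 396.2 and 489.8 FPKM in WT. All MG values lay below all MZ and WT values, and MG 3 was the lowest. In both comparisons MG differed by -0.65 on the log2 scale (limma adjusted p = 0.158 against WT and 0.141 against MZ), and without MG 3 it was -0.42 in both (limma adjusted p = 0.279 and 0.288; range over the alternatives 0.137 to 0.615 and 0.109 to 0.695). Quantile normalization gave -0.21 and -0.16. MG 3 was also the library with the lowest oocyte marker sum, and the part this plays in the value was not tested. The authors' deposited q-values were 0.0774 for MG against WT and 0.014 for MG against MZ. For MZ against WT the fold change was 0.00, with a 95% interval from -0.46 to 0.46.

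Fbxo8, an F-box protein with a Sec7 domain, lies on chromosome 8 (56551090 to 56593939). It had 60.7, 63.4 and 80.0 FPKM in MG, 117.5, 102.2 and 82.5 FPKM in MZ, and 116.3, 89.0 and 115.5 FPKM in WT. The MG values lay below all others, by little in the case of MG 3 and MZ 3. In limma, MG differed from WT by -0.64 (adjusted p = 0.155) and from MZ by -0.55 (adjusted p = 0.187) on the log2 scale, and the authors' deposited q-values were 0.0461 and 0.025. At the same FPKM sum, the fold changes of Fbxo8 were -0.26 and -0.13 (limma adjusted p = 0.522 and 0.765), where the medians over all genes were 0.359 and 0.39. Fbxo30, whose protein is known in mouse oocytes for a part in chromosome condensation in meiosis, averaged 92.9 ± 31.2 FPKM in MG, 63.3 ± 5.26 FPKM in MZ and 89.1 ± 24.2 FPKM in WT. The MG and WT libraries of Fbxo30 covered the same range, and the log2 fold change for MG against MZ was 0.50 (limma adjusted p = 0.355), where the authors' deposited q-value was 0.0328.

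On the higher side, Fbxo11, which is known to target BCL6 in B cells, lies on chromosome 17 (87990859 to 88065291). It had 34.1, 33.3 and 57.1 FPKM in MG, 26.4, 23.7 and 24.5 FPKM in MZ, and 23.7, 31.9 and 22.5 FPKM in WT. The MG values were above all others, and the highest was MG 3. Against WT, MG differed in limma by 0.62 (adjusted p = 0.238) and against MZ by 0.67 (adjusted p = 0.194) on the log2 scale, with authors' deposited q-values of 0.173 and 0.0408. Without MG 3 the fold changes were 0.38 and 0.42 (limma adjusted p = 0.477 and 0.463, range over the alternatives 0.118 to 0.477 and 0.0835 to 0.463). At the same FPKM sum they were 1.003 and 1.093, where the medians over all genes were 0.359 and 0.39. The locus of Fbxo11 overlaps that of Msh6.

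Fbxo45, which acts with Mycbp2 in neurons, had 2.23, 4.74 and 2.81 FPKM in MG, 0.560, 1.08 and 1.33 FPKM in MZ, and 0.482, a listed 0 and 1.09 FPKM in WT. The MG values were above all others, but they stood for only about 7.9 fragments a library in MG, 2.3 in MZ and 1.0 in WT. Against WT, MG differed in limma by 1.5025 (adjusted p = 0.129) and against MZ by 1.07 (adjusted p = 0.22) on the log2 scale, and with the pseudocount these values moved between 0.57 and 2.96 and between 0.45 and 1.63. Fbxl15 had 1.99, 3.06 and 4.42 FPKM in MG, was listed at 0, 2.54 and 0 in MZ, and was listed at 0 in all 3 WT libraries. Its fragments were about 2.6 a library in MG and 0.8 in MZ, and it overlaps Cuedc2. It passed the filter on low values through its 3 MG libraries, and an FPKM of 0 can also be a failed estimate. No fold or p-value is therefore printed for Fbxl15, and the counts of members with MG above are also given without it.

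**Figure D5:**
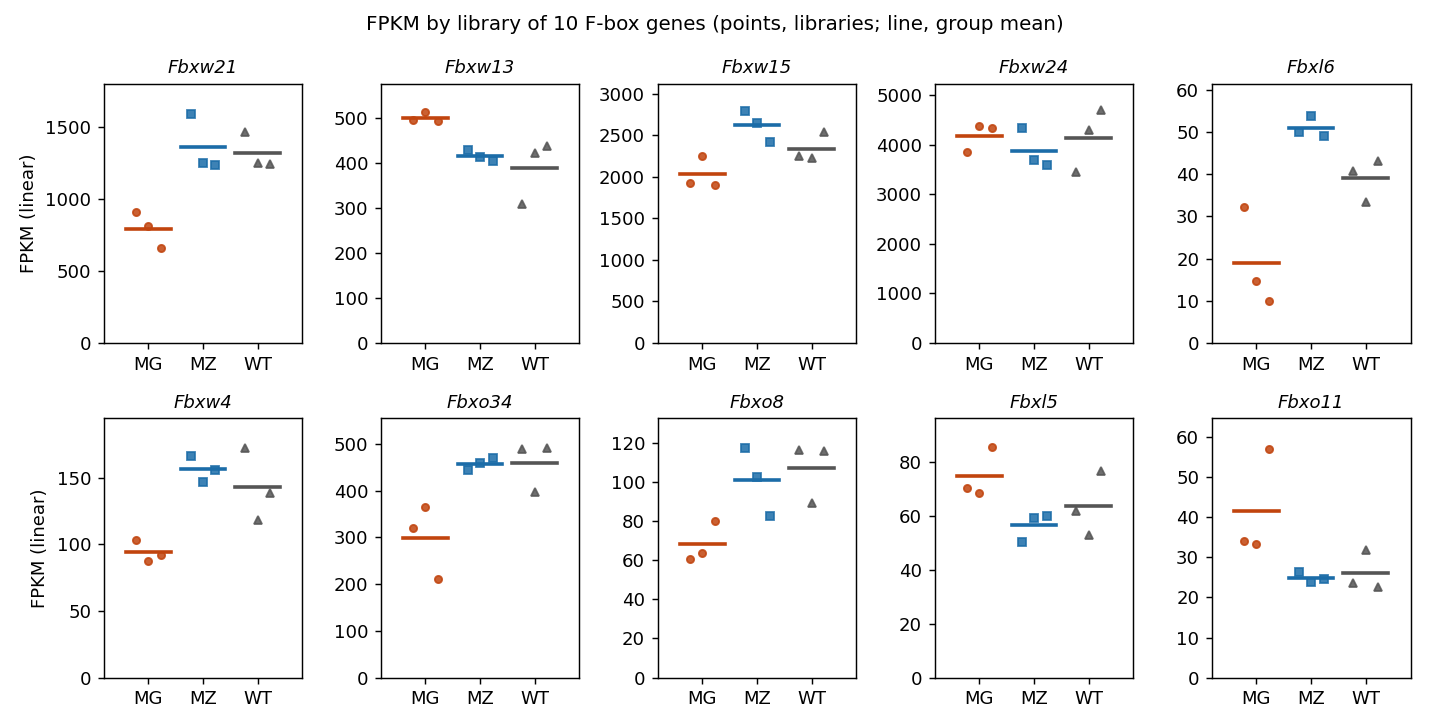
FPKM (linear axes from 0) in each of the 9 libraries for 10 F-box genes; points are libraries, lines the group means, with MG, MZ and WT from left to right. For Fbxw21, Fbxl6, Fbxw4, Fbxo34 and Fbxo8 the 3 MG points lie below all others, for Fbxw13 and Fbxo11 above all others, for Fbxw15 below and for Fbxl5 above the MZ points, and for Fbxw24 the groups overlap.

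Of the members with well-known substrates, Fbxl5, the iron-dependent receptor that targets IRP2, averaged 74.9 ± 9.44 FPKM in MG, 56.6 ± 5.39 FPKM in MZ and 63.8 ± 12.1 FPKM in WT. Its MG values were above its MZ values and overlapped those of WT, with a log2 fold change of 0.40 for MG against MZ (limma adjusted p = 0.329). At the same FPKM sum this was 0.82 (limma adjusted p = 0.076), where the median over all genes was 0.39. Fbxw7, which targets cyclin E, Myc and Notch, was low at 3.15 ± 2.43 FPKM in MG, 1.66 ± 1.24 FPKM in MZ and 1.81 ± 0.964 FPKM in WT. Its 95% interval for MG against WT ran from -0.68 to 1.599 on the log2 scale, with about 9.4 fragments a library in MG, 3.9 in MZ and 3.7 in WT, and its locus overlaps that of Dear1. Fbxw11, a beta-TrCP gene, averaged 8.92 ± 0.959 FPKM in MG, 6.68 ± 1.80 FPKM in MZ and 7.53 ± 1.46 FPKM in WT, and the groups overlapped.

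In the authors' deposited table, q-values under 0.05 were given for 3 members for MG against WT (Fbxl6, Fbxo8 and Fbxw21, all lower), for 0 members for MZ against WT, and for 7 for MG against MZ (Fbxl6, Fbxo34, Fbxo8, Fbxw21 and Fbxw4 lower, Fbxo11 and Fbxo30 higher). These are 11.1% of 27, 0% of 26 and 25.9% of 27 members with a deposited p-value below 1, beside 12.7%, 2.55% and 26.5% of all genes with such a p-value, so the members' shares lay near the background.

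For the MZ knockout against WT, the smallest adjusted p of any member was 0.789. The 6 members whose groups did not overlap were Fbxl6, Fbxl14, Fbxo21 and Fbxo38, higher in MZ, and Fbxw16 and Fbxl17, lower in MZ. Fbxw16 had a log2 fold change of -0.36 with a 95% interval from -0.78 to 0.07. For the 13 genes of the run, the fold changes lay between -0.36 and 0.17.

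At the low end, 5 members were listed at 0 in all 9 libraries, namely Fbxl16, Fbxo2, Fbxo24, Fbxo27 and Fbxo44. Fbxo2, Fbxo27 and Fbxo44 belong to a family of F-box proteins of which some bind sugar chains of glycoproteins. Of the same family, Fbxo6 was listed above 0 in 1 library (MZ 2, 1.46 FPKM) and Fbxo17 in all 9 libraries (mean 6.16 FPKM). Fbxo32, the muscle atrophy gene atrogin-1, was above 0 only in MG 3 (0.177 FPKM). The other untested rows were Fbxl12os, Fbxl13, Fbxl21, Fbxo4, Fbxo39, Fbxo41 and Fbxo48, with means of 0.0210 to 0.963 FPKM. In all, 56 of the 76 rows were above 0 in every library, and 16 overlap the locus of another row.

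F-box proteins act mainly as parts of the ligase, so the genes of its other parts were read beside them. Of 33 genes of the SCF core, its E2 enzymes, the neddylation pathway, the exchange factors and the COP9 signalosome, 32 were tested and 0 passed limma in any comparison, with 5 at an unadjusted p under 0.05 in MG against WT, 1 in MZ against WT and 4 in MG against MZ. These are 15.6%, 3.12% and 12.5% of the genes tested, beside 17.7%, 6.3% and 17.6% over all genes, so they lay near or below the background. The median log2 fold changes were -0.17, 0.01 and -0.11 in that order, beside 0.04, 0.01 and 0.04 over all genes. The adaptor Skp1a, which the F-box binds, averaged 2844 ± 818 FPKM in MG, 3307 ± 282 FPKM in MZ and 3536 ± 536 FPKM in WT. The scaffold Cul1 averaged 151.9 ± 8.67 FPKM in MG, 166.3 ± 5.30 FPKM in MZ and 155.6 ± 25.3 FPKM in WT. The smallest p-values for MG were those of Senp8, the protease that removes Nedd8 and matures it, which had 95.02, 76.8 and 92.8 FPKM in MG, 127.8, 148.5 and 164.0 FPKM in MZ, and 145.3, 114.3 and 131.0 FPKM in WT. Its MG values lay below all others, and in limma MG differed from WT by -0.56 (adjusted p = 0.158) and from MZ by -0.73 (adjusted p = 0.0853) on the log2 scale. These became -0.17 and -0.30 at the same FPKM sum, where the medians over all genes were 0.359 and 0.39. Cops8, a subunit of the signalosome that takes Nedd8 off cullins, had 247.9, 232.8 and 189.6 FPKM in MG, 358.2, 339.6 and 337.1 FPKM in MZ, and 354.5, 256.5 and 276.2 FPKM in WT, with an adjusted p of 0.109 in limma for MG against MZ. Glmn, an inhibitor of Rbx1, averaged 15.4 ± 5.70 FPKM in MG, 17.2 ± 4.18 FPKM in MZ and 24.9 ± 3.28 FPKM in WT. For MZ against WT the smallest p were those of Ube2d1, an E2 enzyme with 5.49, 7.05 and 7.31 FPKM in MZ, against 4.77 FPKM and 2 listed values of 0 in WT (limma adjusted p = 0.671), and of Dcun1d4, a neddylation factor with 4.91 ± 1.82 FPKM in MZ and 9.33 ± 3.58 FPKM in WT.

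The F-box genes that carry other symbols, Skp2, Ccnf, Btrc, Kdm2a and Kdm2b, were all tested and 0 of the 5 passed limma in any comparison, with 1 unadjusted p under 0.05 (Ccnf, MZ against WT). Of 19 genes for known substrates of F-box proteins, 14 were tested and 1 passed in 1 comparison, MG against MZ, where 0.13% of all genes did. An unadjusted limma p under 0.05 was found for 3 of the 14 in MG against WT (21.4%, where all genes gave 17.7%), 1 in MZ against WT (7.14%, where all genes gave 6.3%) and 6 in MG against MZ (42.9%, where all genes gave 17.6%), the 6 being 5 higher and 1 lower. Ccne2, one of the E-type cyclins that FBXW7 targets, had 26.7, 29.1 and 26.7 FPKM in MG, 6.90, 8.51 and 6.70 FPKM in MZ, and 12.6, 11.6 and 14.5 FPKM in WT. The 3 groups did not overlap. Ccne2 RNA was higher in MG than in MZ by 1.77 on the log2 scale (limma adjusted p = 0.0296), while MG differed from WT by 1.04 (limma adjusted p = 0.0793) and MZ from WT by -0.73 (limma adjusted p = 0.661). The call was lost without MG 2 (limma adjusted p = 0.101), MG 3 (0.0544), MZ 1 (0.164), MZ 2 (0.125), MZ 3 (0.0685) or WT 3 (0.0555), and it held in the other 13 of the 19 alternatives, with adjusted p from 0.00942 to 0.164 over all 19. Transcript levels say nothing of the protein, which is what F-box proteins act on.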

How the data were processed

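RNA of mouse oocytes was amplified as in Smart-seq2, and libraries came from a kit that fragments and primes at random, per the labels' protocols, and were sequenced in 150-base pairs, per the series text. Per the series text and the submitters' processing notes, reads were trimmed and aligned to mm10 with TopHat2 2.0.13. The deposited values are FPKM, computed by the authors with Cufflinks 2.2.1, and the deposited p-values and q-values come from Cuffdiff at default settings, both per the series text. The gene annotation and strand setting are not given in the sources used here. Of 24255 rows, 27 had a symbol turned into a date and were left out. Symbols and positions were matched to GENCODE M21 (23105 rows, 95.4%, and all 76 members), and promoters are RefSeq's.

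From these, log2(FPKM + 1) of genes with at least 1 FPKM in at least 3 of 9 libraries (10801 genes) was fitted with limma 3.58.1 in R 4.3.3 (trend on mean level, all 9 libraries, 6 residual degrees of freedom), two-sided, with Benjamini-Hochberg adjustment over all genes tested and a threshold of 0.05. Such fold changes understate the change of low genes. The limma steps were also run on simulated libraries that shared the same means apart from planted changes. That run does not cover differences in scale between libraries, on which several results here depend. Approximate fragments were read from low FPKM values and annotated lengths (between 427300 and 762700 a library), and such figures cover counting only roughly. Sequence identities and motif matches were computed with Biopython 1.88 and Python 3.11.15.

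Members with values are any that passed (there were none), the chromosome 9 Fbxw run, the 10 most abundant members, up to 4 members per direction and comparison with the smallest unadjusted p under 0.05, and Fbxw7, Fbxw11, Fbxl5, Fbxo11, Fbxo30 and Fbxo34. One further member of this kind is counted among the members but its values are not reported here. From the ligase list, up to 2 genes per comparison with the smallest p were named, and from the substrate list those that passed. Skp1a, Cul1, Fbxo28, Ccnf, the members listed at or near 0 and those without overlap for MZ against WT were named after their values were seen. The members and lists were chosen with earlier results of these data known. In all, 19 alternatives were run, for the pseudocount, filter, scaling, variance model, libraries in the fit and a replicate block.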

Additional observations from a re-analysis of the deposited data

How the results depend on the processing

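The count of members that passed was 0 in every setting and comparison except without MG 1, where it was 1 for MG against WT (Fbxl6) and 2 for MG against MZ (Fbxl6 among them), so it ranged from 0 to 1 and from 0 to 2 when libraries were left out. SCF machinery counts stayed at 0. No result that passed in either fit turned in sign, though 86 of 1758 fold changes of named genes under an alternative had another sign, passing in neither. The log2 ratio of the summed run was -0.144 (MG against WT) and -0.089 (MG against MZ) as deposited, and 0.245 and 0.354 at the same FPKM sum, where the median of all genes moved too, to 0.359 and 0.39.

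The count over all genes moved far more. For MG against WT, 37 genes became 17 with no filter, 66 at the same FPKM sum, 21 with quantile normalization, 5 with the 2 groups alone, and 3 to 32 with a library left out. For MZ against WT, 4 became 2 with a pseudocount of 0.1 and with no filter, 0 at a filter of 5 FPKM, 1 at the same FPKM sum and with quantile normalization, 7 with no variance trend, and 0 to 6 with a library left out. For MG against MZ, 14 became 6 with a pseudocount of 0.1, 30 with a pseudocount of 5, 9 with no filter, 31 at the same FPKM sum, 9 with no variance trend, 73 with the 2 groups alone, and 0 to 213 with a library left out. The causes were not tested.

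The labels number the libraries 1 to 3 in each group without saying that a number pairs them. Correlations of the deviations of libraries with the same number lay between -0.0702 and 0.0731, so no pairing was shown. With a replicate block, 13 genes passed in MG against WT, 0 in MZ against WT and 159 in MG against MZ, and 0 members in any of them. At a filter of 5 FPKM, Fbxl15, Fbxo45 and Fbxw7 gave no value. Low members rest on a few fragments, and depth limits what can be seen of them.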
